A study of Rattus norvegicus with 16 samples.

Results

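The rat voltage-gated calcium and sodium channel genes were taken as every gene whose array symbol starts with Cacna, Cacnb or Cacng, or with Scn followed by a digit. The rule gave 36 genes of the 10411 that had a single symbol on the array, and no measured change was used to choose them. They were covered by 47 probe sets, groups of short probes that read 1 transcript, of the 15866 tested. In the 7 genes with several probe sets, the probe set with the highest average was used, and the 11 others are described separately. By role, there were 10 calcium channel pore genes (Cacna1a to Cacna1i and Cacna1s), 2 α2δ genes (Cacna2d1, Cacna2d3), 4 calcium channel β genes (Cacnb1 to Cacnb4) and 8 γ genes (Cacng1 to Cacng8). On the sodium side there were 9 pore genes (Scn1a, Scn2a, Scn3a, Scn4a, Scn7a, Scn8a, Scn9a, Scn10a, Scn11a) and 3 β genes (Scn2b, Scn3b, Scn4b).

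According to its title, the study dealt with oxidative stress in 2 fields of the hippocampus, CA1 and CA3. Rat RNA came from organotypic slice cultures, in which a slice of brain is kept alive with its neurons, glia and much of its local wiring. The 8 groups were CA1 at T0, 30 min, 3 h and 12 h and CA3 at T0, 30 min, 3 h and 12 h, with 2 arrays in each, 16 in all. All groups share the culture. The sources used here do not give the agent, its dose, how T0 relates to the stress, or the strain and age of the rats. Replicates are labelled as biological, but separate animals are not mentioned, so the p-values measure the spread between these arrays, which may be technical.

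Voltage-gated calcium and sodium channels open when the membrane is depolarised. Sodium channels carry the rising phase of the action potential, and calcium channels turn that electrical signal into calcium entry, which drives transmitter release, dendritic excitability and calcium-dependent transcription. Each channel is built around 1 large pore subunit; calcium channel α2δ and β subunits bring the pore to the surface and set its gating, sodium channel β subunits do so for sodium pores, and several γ proteins serve AMPA-type glutamate receptors rather than calcium channels. In the hippocampus, pyramidal neurons and interneurons express most of these genes, while a few are known mainly from muscle, retina or peripheral sensory neurons.

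Start-site sequences are shown for 4 genes that the results turn on: Scn2a and Scn3a, neighbouring sodium pore genes whose arrays at 12 h lay above those at T0, Scn7a, the gene with the largest negative change, and Cacna2d1, the calcium channel gene whose 12 h arrays all lay above T0. Each line gives the 250 bases before the RefSeq start of the gene on assembly GRCr8, read 5′ to 3′ on the strand of the gene. Scn2a lies at chr3:70710706-70710955 on the plus strand, Scn3a at chr3:70666199-70666448 on the minus strand, Scn7a at chr3:71846285-71846534 on the minus strand and Cacna2d1 at chr4:20330148-20330397 on the minus strand. Capitals mark matches, on either strand, to any of 3 motifs. The first, GGGCGG, is the GC box bound by factors of the Sp family. The second, TGACG, is the core of the cyclic AMP response element. The third, TGANTCA, is the AP-1 motif, bound by Fos and Jun proteins.
Scn2a: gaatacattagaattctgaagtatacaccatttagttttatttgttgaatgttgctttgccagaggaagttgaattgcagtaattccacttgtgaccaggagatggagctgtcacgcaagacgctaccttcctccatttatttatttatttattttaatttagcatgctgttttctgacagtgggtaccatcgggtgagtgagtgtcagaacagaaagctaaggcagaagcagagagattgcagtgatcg
Scn3a: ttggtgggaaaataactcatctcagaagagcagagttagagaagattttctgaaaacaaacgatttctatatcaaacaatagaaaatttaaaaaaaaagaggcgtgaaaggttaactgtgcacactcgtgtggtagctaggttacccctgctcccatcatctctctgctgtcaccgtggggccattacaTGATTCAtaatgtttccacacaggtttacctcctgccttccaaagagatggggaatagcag
Scn7a: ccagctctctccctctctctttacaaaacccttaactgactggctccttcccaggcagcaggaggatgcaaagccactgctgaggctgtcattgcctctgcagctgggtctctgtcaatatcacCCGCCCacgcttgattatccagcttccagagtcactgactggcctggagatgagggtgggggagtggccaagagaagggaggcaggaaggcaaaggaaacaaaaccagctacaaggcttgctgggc
Cacna2d1: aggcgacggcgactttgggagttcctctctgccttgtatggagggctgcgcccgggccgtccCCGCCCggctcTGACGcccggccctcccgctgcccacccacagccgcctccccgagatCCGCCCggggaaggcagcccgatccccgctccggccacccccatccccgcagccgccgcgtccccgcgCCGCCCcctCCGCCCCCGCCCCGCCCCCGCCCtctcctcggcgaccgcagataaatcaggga
The Cacna2d1 stretch had a GC content of 77.2% and held 7 GC boxes, some of them overlapping, and 1 TGACG. That of Scn7a had 56.0% GC and 1 GC box. The Scn3a stretch, at 41.6% GC, held 1 AP-1 match from 61 to 55 bases before the start, and the Scn2a stretch, at 39.6% GC, held no match. RefSeq start sites were found for 26 of the 36 genes, with a median GC content of 61.0% against 52.0% over 27457 genes. A GC box stood in 12 of the 26 against 32.4% of all, TGACG in 4 against 19.0%, and the AP-1 motif in Scn3a alone against 6.36%. A TATA box, searched as TATAAA, stood in Cacna1s and Cacng2 against 13.1% of all. The left part of the RE1 element, at which neuronal genes are silenced outside neurons, was searched as TTCAGCACC and stood in Cacng3 alone against 0.317%. A match is only a run of letters in this window. In the RefSeq gene order, Scn3a and Scn2a are adjacent protein-coding genes on chromosome 3, and Scn1a, Scn9a and Scn7a follow 4 genes further on, also in a row.

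All values are log2 expression values, so a difference of 1 is a 2-fold difference, and they run from 2.82 to 13.96 over the whole array. Levels of different genes are not compared, because each probe set has its own scale. A mean log2 value under 5, which is low on these arrays, was found for 17 of the 36 genes, against 34.4% of all probe sets. The channel genes as a group were quiet: their range over the 16 arrays had a median of 0.86 on the log2 scale, against 1.11 over all probe sets. A minority varied widely. Cacna2d3, Cacnb2, Scn1a, Scn2a, Scn3a, Scn3b and Scn7a each spanned more than 2 log2 units, which is 19.4% of the channel genes against 15.1% of all probe sets, and all 7 had mean values of at least 5.

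The first question was how each gene changed from T0, averaged over both fields (4 arrays against 4). limma, a linear model fitted to all probe sets at once, was used with Benjamini-Hochberg adjustment over all 15866, and a gene was called at an adjusted p under 0.05. None of the 36 genes was called at 30 min, 3 h or 12 h, where 0.107%, 0.183% and 2.07% of all probe sets were called. At an unadjusted p under 0.05 there were 1, 2 and 7 of the 36 channel genes. Over all 15866 probe sets there were 1184, 1443 and 2891. When the means of each CA1 and CA3 array pair were fitted instead, 0 channel genes and 0% of all probe sets were called at each time. In that fit 0, 1 and 6 channel genes were under 0.05 unadjusted, beside 629, 792 and 1664 of all probe sets.

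By 12 h, a set of neuronal pore and auxiliary genes had higher mean values than at T0 and Scn7a a lower one, each short of the adjusted threshold. The absolute change exceeded 0.5 for 11 of 36 genes, 30.6%, against 23.4% of all probe sets. The lowest adjusted p was 0.0846, for Cacnb3. The median over the 36 genes was 0.05, with 23 higher and 13 lower, beside -0.02 for all probe sets. All 4 arrays at 12 h lay above the 4 at T0 for Cacna2d1, Scn2a and Scn3a, which is 3 of 36 against 7.55% of all probe sets. No channel gene had all 4 arrays below, against 8% of all. These shares are close to the background of the array.

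**Figure D1:**
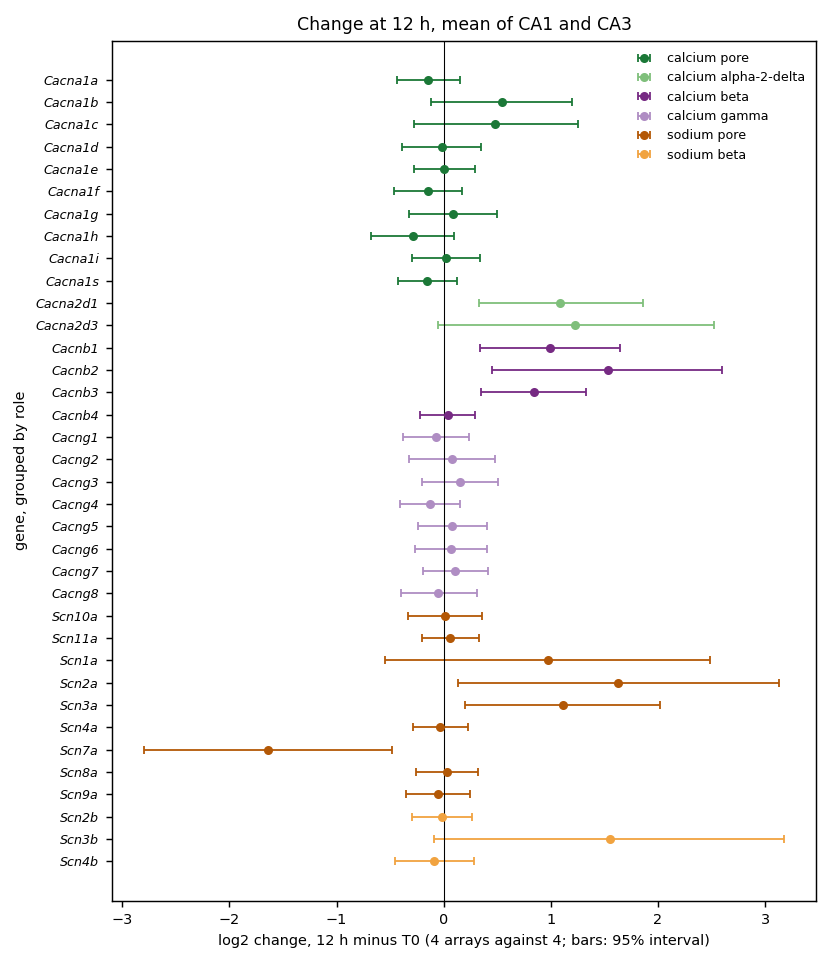
Log2 change from T0 to 12 h for each of the 36 genes, grouped by role. Points are the mean of CA1 and CA3 (4 arrays against 4) and bars are 95% intervals from limma. The bars treat paired CA1 and CA3 arrays as independent and tend to be too narrow. The γ genes sit between -0.13 and 0.15, the sodium pore genes run from -1.64 (Scn7a) to 1.63 (Scn2a), and 3 of 4 calcium channel β genes lie at 0.84 or above.

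Scn2a encodes the pore found on the axons of excitatory neurons. Its log2 values in CA1 were 3.59 and 4.36 at T0, 5.82 and 6.56 at 30 min, 4.27 and 6.17 at 3 h, and 5.87 and 6.16 at 12 h. In CA3 they were 5.81 and 4.70 at T0, 4.39 and 6.92 at 30 min, 4.49 and 6.73 at 3 h, and 5.85 and 7.12 at 12 h. The lowest 12 h array was thus only just above the highest T0 array, a CA3 array, while at 30 min and 3 h low and high arrays stood side by side. The change at 12 h was 1.63 ± 0.68 (SE; 95% interval 0.13 to 3.13; adjusted p = 0.231), with 2.04 ± 0.96 in CA1 and 1.23 ± 0.96 in CA3. At 30 min it was 1.31 ± 0.68 (adjusted p = 0.746).

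Scn3a, a pore gene best known from developing neurons and from injured ones, ran much like Scn2a at 12 h. In CA1 its log2 values were 5.70 and 5.72 at T0, 7.01 and 6.75 at 30 min, 5.73 and 7.27 at 3 h, and 6.72 and 7.62 at 12 h. In CA3 they were 5.62 and 6.44 at T0, 5.97 and 6.67 at 30 min, 5.32 and 6.76 at 3 h, and 6.49 and 7.08 at 12 h. Each 12 h array was above each T0 array, though by little in CA3. The change at 12 h was 1.11 ± 0.41 (95% interval 0.20 to 2.02; adjusted p = 0.185). Scn1a, the pore gene associated with fast-spiking interneurons, had a change of 0.97 ± 0.69 (95% interval -0.55 to 2.49; adjusted p = 0.538). Its CA3 arrays at 30 min were 3.66 and 6.65, the lowest and the highest of the 16. The Scn1a change of 0.72 at 30 min was thus -0.03 without the second of them and 1.46 without the first. Scn3a and Scn1a, like Cacna2d1, Cacnb3 and Cacna1c, were chosen for description after their values were seen.

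Scn7a codes for an atypical sodium channel that senses the extracellular sodium level and is known from glial cells and non-myelinating Schwann cells. Its log2 values in CA1 were 9.32 and 8.75 at T0, 9.52 and 8.27 at 30 min, 9.94 and 7.69 at 3 h, and 7.89 and 6.84 at 12 h. In CA3 they were 8.65 and 7.74 at T0, 8.59 and 7.17 at 30 min, 8.28 and 7.71 at 3 h, and 6.55 and 6.64 at 12 h. In CA3 the 12 h arrays were the lowest, whereas in CA1 a 3 h array, at 7.69, lay below one of the 12 h arrays. The one exception to a full separation from T0 was CA1 replicate 1 at 12 h, at 7.89, above CA3 replicate 2 at T0, at 7.74. The change at 12 h was -1.64 ± 0.52 (95% interval -2.80 to -0.48; adjusted p = 0.13), nearly equal in CA1 at -1.67 ± 0.74 and in CA3 at -1.60 ± 0.74. At 30 min and 3 h it was -0.23 ± 0.52 and -0.21 ± 0.52. The former was 0.12 without CA3 replicate 2 at 30 min and -0.59 without CA3 replicate 1 at 30 min. Scn7a therefore differed in sign at 12 h from Scn1a, Scn2a and Scn3a of the same stretch of chromosome 3, while Scn9a, its immediate neighbour, was at -0.05 ± 0.14.

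The 5 other sodium pore genes had 12 h changes between -0.05 and 0.06. They were Scn4a of skeletal muscle, Scn8a of axon initial segments and nodes, and Scn9a, Scn10a and Scn11a, which are known from peripheral sensory neurons. Scn8a had a low mean log2 value on this probe set, 3.95 with arrays from 3.71 to 4.24, and Scn9a one of 3.29 with arrays from 3.13 to 3.67. At such values a low signal and a weak probe set cannot be told apart.

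Among the sodium channel β genes, Scn3b had the one large value at 12 h. Scn3b encodes a β subunit that modulates the gating of brain sodium pores. Its log2 values in CA1 were 5.68 and 5.86 at T0, 5.86 and 6.81 at 30 min, 5.79 and 8.05 at 3 h, and 8.06 and 7.60 at 12 h. In CA3 they were 7.02 and 5.79 at T0, 5.68 and 7.30 at 30 min, 5.44 and 8.83 at 3 h, and 7.92 and 6.95 at 12 h. All 12 h arrays except CA3 replicate 2 lay above every T0 array, and the 3 h pairs were split by 2.26 in CA1 and 3.39 in CA3. The change at 12 h was 1.55 ± 0.74 (95% interval -0.09 to 3.18; adjusted p = 0.305). Scn2b, at -0.02 ± 0.13, and Scn4b, at -0.09 ± 0.17, have mean log2 values of 3.39 and 4.87.

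**Figure D2:**
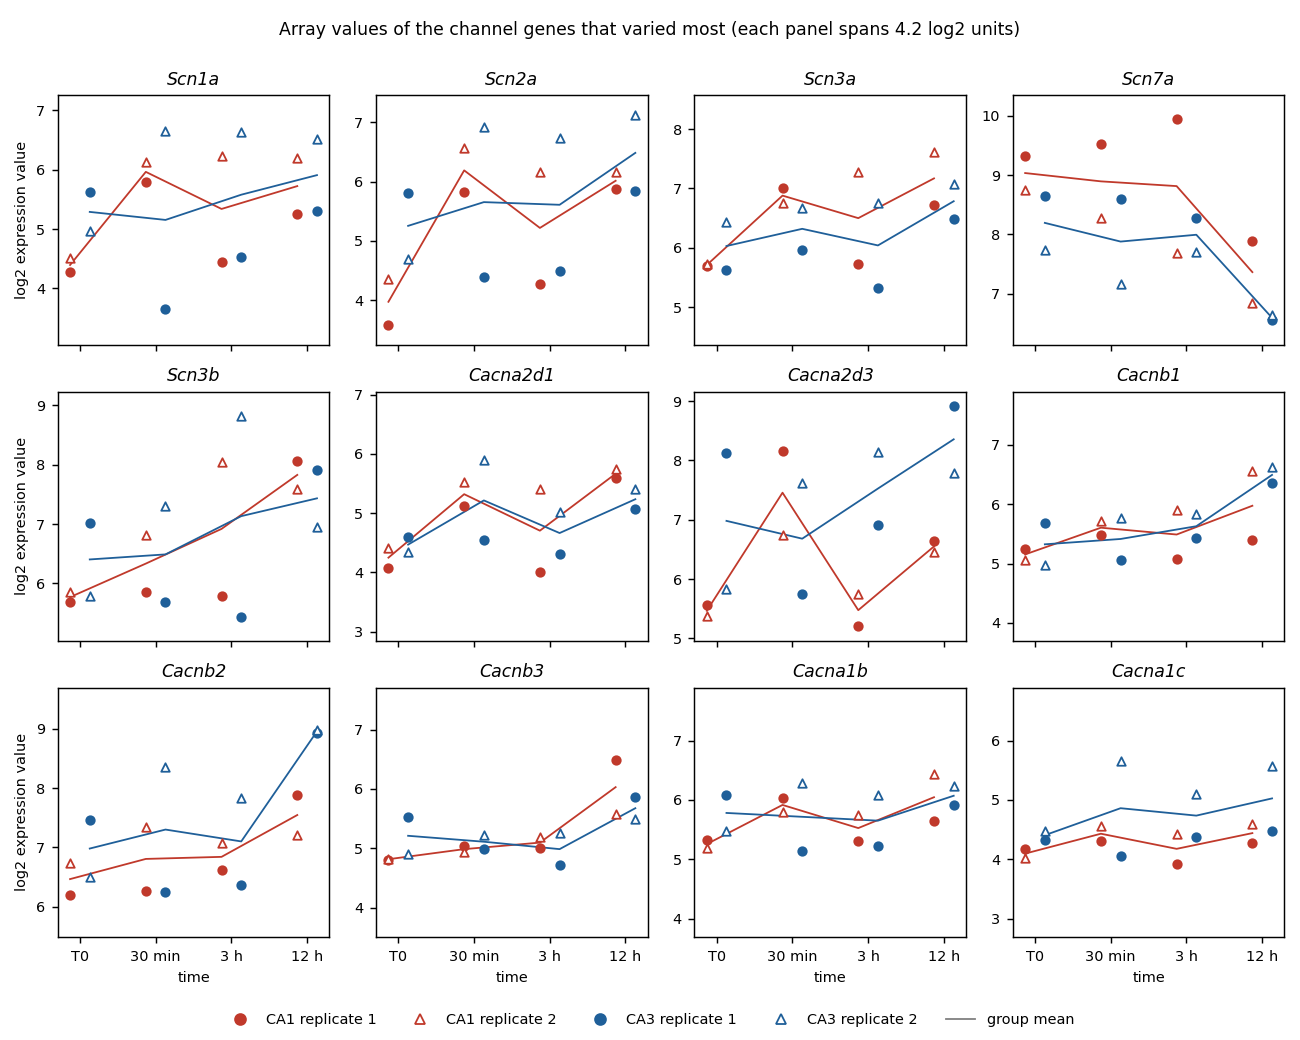
Log2 expression values in each of the 16 arrays for the 12 genes with the largest changes, by time, with CA1 in red and CA3 in blue; filled circles are replicate 1, open triangles replicate 2, and lines join group means. The Scn7a group mean is lowest at 12 h in both fields, while in Scn1a, Scn2a, Scn3a and Scn3b the replicates at 3 h lie more than 1.4 log2 units apart.

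The calcium channel β subunits help bring pores to the membrane. Of the 4 β genes, Cacnb2, Cacnb1 and Cacnb3 were at 1.53 ± 0.49, 0.99 ± 0.30 and 0.84 ± 0.22 at 12 h (adjusted p = 0.129, 0.111 and 0.0846), and Cacnb4 was at 0.04 ± 0.11. The 95% intervals of the first 3 excluded 0 without adjustment. The β median of 0.92 stands beside -0.02 over all probe sets, and 0 of 4 were called.

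Cacnb2 log2 values in CA1 were 6.20 and 6.73 at T0, 6.27 and 7.34 at 30 min, 6.61 and 7.07 at 3 h, and 7.88 and 7.21 at 12 h. In CA3 they were 7.46 and 6.50 at T0, 6.24 and 8.36 at 30 min, 6.37 and 7.83 at 3 h, and 8.93 and 8.98 at 12 h. The CA3 arrays at 12 h were the highest of the 16, and only CA1 replicate 2 at 12 h overlapped with a T0 array. The Cacnb2 change at 12 h was 1.08 ± 0.69 in CA1 and 1.98 ± 0.69 in CA3, and the difference between the fields was -0.90 ± 0.97 (adjusted p = 1). Its other probe sets gave 1.05 ± 0.33 and -0.01 ± 0.14, the latter on a probe set with a mean log2 value of 3.69.

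For Cacnb1 the CA1 values were 5.25 and 5.06 at T0, 5.49 and 5.72 at 30 min, 5.08 and 5.90 at 3 h, and 5.39 and 6.56 at 12 h. The CA3 values were 5.68 and 4.97 at T0, 5.06 and 5.77 at 30 min, 5.43 and 5.83 at 3 h, and 6.36 and 6.63 at 12 h. Only CA1 replicate 1 at 12 h fell within the T0 range. Cacnb3, the β subunit best known from neuronal N-type channels, had 4.81 and 4.82 at T0 in CA1 against 6.49 and 5.57 at 12 h. In CA3 the Cacnb3 values were 5.52 and 4.90 at T0 and 5.86 and 5.49 at 12 h, so that 1 of the 12 h arrays was just inside the T0 range.

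Both measured α2δ genes, whose products sit outside the membrane and increase channel density at synapses, had positive 12 h values. Cacna2d1, whose product binds gabapentin, had CA1 values of 4.08 and 4.42 at T0, 5.12 and 5.52 at 30 min, 4.01 and 5.40 at 3 h, and 5.59 and 5.74 at 12 h. In CA3 they were 4.59 and 4.35 at T0, 4.54 and 5.89 at 30 min, 4.31 and 5.02 at 3 h, and 5.07 and 5.40 at 12 h. The 12 h arrays cleared the T0 arrays in both fields. The Cacna2d1 change was 0.91 ± 0.35 at 30 min (adjusted p = 0.539) and 1.09 ± 0.35 at 12 h (95% interval 0.33 to 1.86; adjusted p = 0.128).

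Cacna2d3 was the most variable of the 36 genes, with arrays from 5.20 to 8.92. In CA1 it had 5.56 and 5.37 at T0, 8.16 and 6.75 at 30 min, 5.20 and 5.75 at 3 h, and 6.64 and 6.46 at 12 h. In CA3 it had 8.12 and 5.84 at T0, 5.74 and 7.62 at 30 min, 6.91 and 8.14 at 3 h, and 8.92 and 7.79 at 12 h. One CA3 array at T0 was as high as most later ones, and its partner was 2.28 lower. The 12 h change of 1.23 ± 0.58 (adjusted p = 0.296) was 0.66 without CA3 replicate 2 at T0 and 1.80 without CA3 replicate 1 at T0.

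The calcium channel pores were close to level. Their 10 changes at 12 h ran from -0.29 to 0.54 with a median of -0.01, and 0 of 10 had an unadjusted p under 0.05. Cacna1b, the N-type pore of presynaptic terminals, was at 0.54 ± 0.30 (95% interval -0.12 to 1.20; adjusted p = 0.385), and at 0.34 without CA1 replicate 2 at 12 h. Its CA1 values were 5.32 and 5.19 at T0, 6.03 and 5.80 at 30 min, 5.30 and 5.75 at 3 h, and 5.65 and 6.44 at 12 h, and its CA3 values were 6.08 and 5.48 at T0, 5.14 and 6.29 at 30 min, 5.22 and 6.08 at 3 h, and 5.91 and 6.23 at 12 h. The 12 h arrays overlapped with a CA3 array at T0, and the other Cacna1b probe set, with a mean log2 value of 4.48, was at 0.01 ± 0.11.

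Cacna1a, the P/Q-type pore that shares release with the N-type, lay between 6.10 and 6.77 on all 16 arrays. Its CA1 values were 6.43 and 6.22 at T0, 6.36 and 6.36 at 30 min, 6.26 and 6.77 at 3 h, and 6.10 and 6.36 at 12 h. Its CA3 values were 6.41 and 6.47 at T0, 6.42 and 6.28 at 30 min, 6.52 and 6.51 at 3 h, and 6.14 and 6.34 at 12 h. No group stood apart, and the 12 h change was -0.15 ± 0.13 (95% interval -0.44 to 0.15). Cacna1c, the main L-type pore of neurons, was at 0.48 ± 0.35 (adjusted p = 0.549) and at 0.21 without CA3 replicate 2 at 12 h, its other probe set at -0.16 ± 0.12. The other L-type pores were Cacna1d at -0.02 ± 0.17, Cacna1f of retina at -0.15 ± 0.14 and Cacna1s of skeletal muscle at -0.16 ± 0.12, and the R-type pore Cacna1e was at 0.00 ± 0.13.

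The T-type pores, which open at low voltages and support bursting, were Cacna1g at 0.09 ± 0.18, Cacna1h at -0.29 ± 0.18 and Cacna1i at 0.02 ± 0.15 at 12 h. At 3 h, Cacna1g was at 0.52 ± 0.18 (95% interval 0.12 to 0.93; adjusted p = 0.421). Its T0 arrays lay at 5.01, 4.88, 4.98 and 5.03 and its 3 h arrays at 5.11, 5.68, 5.85 and 5.36, with no overlap. Cacna1h had values of -0.38 ± 0.18 at 30 min and -0.36 ± 0.18 at 3 h (adjusted p = 0.682 and 0.568).

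The γ genes were the most even group, with 12 h changes from -0.13 to 0.15 and a median of 0.07. Only 1 of the 8, Cacng2, had a mean log2 value of at least 5. Low signal limits the others, so their evenness may not reflect steady expression. Cacng2 encodes stargazin, which carries AMPA receptors to the synapse. Its CA1 values were 6.64 and 6.43 at T0, 6.66 and 6.46 at 30 min, 6.52 and 7.38 at 3 h, and 6.60 and 6.86 at 12 h, and its CA3 values were 6.72 and 6.67 at T0, 6.45 and 6.68 at 30 min, 7.02 and 6.95 at 3 h, and 6.79 and 6.53 at 12 h. Only 1 array, CA1 replicate 2 at 3 h, stood out. The Cacng2 change at 12 h was 0.08 ± 0.18, whereas its other probe set, with a mean log2 value of 5.44, was at 0.99 ± 0.33 (adjusted p = 0.141), so the probe sets of this gene disagree. Cacng3, Cacng4 and Cacng8, which are also AMPA receptor partners, were at 0.15 ± 0.16, -0.13 ± 0.13 and -0.05 ± 0.16. Cacng1 and Cacng6, the γ genes closest to the muscle calcium channel, were at -0.07 ± 0.14 and 0.07 ± 0.15, and Cacng5 and Cacng7 at 0.08 ± 0.15 and 0.11 ± 0.14.

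Earlier times were mostly a matter of small values. At 30 min, 26 of 36 genes were higher than at T0 with a median of 0.07, beside 0 for all probe sets, and the largest values were those of Scn2a (1.31), Cacna2d1 (0.91) and Cacna2d3 (0.85). Without CA3 replicate 2 at 30 min those of Scn2a and Cacna2d1 were 0.68 and 0.57. They were 1.94 and 1.24 without CA3 replicate 1 at 30 min. That of Cacna2d3 was 0.28 without CA3 replicate 2 at T0 and 1.42 without CA3 replicate 1 at T0. All 4 arrays lay above T0 in 0 channel genes against 1.89% of all probe sets, and below in 1, Cacna1s, against 3.66%. Cacna1s had 4.35, 4.41, 4.26 and 4.39 at T0 and 4.08, 4.23, 4.12 and 4.23 at 30 min, a shift of -0.19 ± 0.12. At 3 h, 33 of 36 genes were higher, with a median of 0.18, beside 9272 of 15866 probe sets and a median of 0.05. All 8 γ genes had positive values, from 0.08 to 0.35. All 4 arrays lay above T0 for Cacna1g and Cacng6, which is 2 of 36 against 3.01% of all, and below for none against 3.69%. Of the 16 arrays, those numbered 2 at 3 h had the largest 3′ to 5′ GAPDH signal difference, 3.93 in each field against 1.29 to 3.08 elsewhere. Without those 2 arrays the 3 h values became -0.36 for Scn1a, -0.23 for Scn2a, -0.34 for Scn3a and -0.47 for Scn3b, from 0.62, 0.80, 0.40 and 0.94. The part of RNA quality in the 3 h values was not tested further.

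In each field alone, limma called 0 channel genes at each time. The background was 0.0126% at 30 min, 0.0063% at 3 h and 0.208% at 12 h in CA1, and 0%, 0% and 0.0063% in CA3. Under an unadjusted p of 0.05 there were 2, 0 and 4 genes in CA1 and 0, 2 and 3 in CA3. The counts over all 15866 probe sets were 787, 724 and 1787 in CA1 and 483, 623 and 1099 in CA3. The difference between the changes of the fields was tested as an interaction. At each of the 3 times 0 channel genes and 0% of all probe sets were called. At each, 0 channel genes were under 0.05 unadjusted, beside 133, 55 and 71 of all probe sets. In the fit of pair differences the corresponding background was also 0%, with 0 channel genes called. There 5, 0 and 1 channel genes were under 0.05 unadjusted, beside 595, 281 and 371 of all probe sets. The largest difference was that of Cacna2d3 at 30 min, 2.30 ± 1.16 (95% interval -0.27 to 4.87; adjusted p = 1).

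The second comparison was CA1 against CA3 over the 4 times (8 arrays against 8). CA1 and CA3 arrays with the same time and number deviated together, so the 8 differences within pairs were also fitted. Neither fit called a channel gene, with backgrounds of 0% in the fit of all arrays and 0.208% in that of pairs. An unadjusted p under 0.05 was found for 2 and 4 channel genes, beside 510 and 1679 of all 15866 probe sets. The median difference was -0.04, with 10 genes higher and 26 lower in CA1, beside -0.01 over all probe sets. No channel gene was above or below in 8 of 8 pairs, against 1.26% and 1.02% of all probe sets. At T0, 30 min, 3 h and 12 h taken singly, 0 channel genes were called by either fit, over backgrounds of 0% except for 0.0063% at 12 h in the pair fit. Unadjusted p-values under 0.05 numbered 0, 1, 1 and 0 in the fit of all arrays and 1, 1, 2 and 2 in the pair fit.

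Scn7a was higher in CA1 in 7 of 8 pairs. The CA1 minus CA3 differences of its pairs, on the log2 scale, were 0.67 and 1.01 at T0, 0.93 and 1.10 at 30 min, 1.66 and -0.02 at 3 h, and 1.34 and 0.20 at 12 h. The mean difference was 0.86 ± 0.37 in the unpaired fit of 8 group means (adjusted p = 1) and 0.86 ± 0.19 in the pair fit (adjusted p = 0.128). It ranged from 0.58 to 1.14 when single arrays were left out. The share of all probe sets with 7 of 8 pairs on the same side was not counted. The counts of 7 of 8, for Scn7a and for the genes that follow, therefore stand without a background.

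Cacna2d3 was lower in CA1 in 7 of 8 pairs, with differences of -2.57 and -0.47 at T0, 2.42 and -0.86 at 30 min, -1.70 and -2.39 at 3 h, and -2.28 and -1.33 at 12 h. The first pair at 30 min ran against the other 7, its CA1 array at 8.16 and its CA3 array at 5.74. The mean was -1.15 ± 0.41 in the unpaired fit (adjusted p = 1) and -1.15 ± 0.35 over pairs (adjusted p = 0.244). Cacnb2 had a mean of -0.67 ± 0.20 over pairs (adjusted p = 0.244), with -1.05 and -1.77 at 12 h, but 3 of 8 pairs were higher in CA1, by 0.23 at T0, 0.03 at 30 min and 0.24 at 3 h. The Cacnb2 mean was -0.93 without CA3 replicate 1 at 30 min, -0.40 without CA3 replicate 2 at 30 min and -0.35 as the mean of all its probe sets. Cacna1c, at -0.47 ± 0.16 in the pair fit (adjusted p = 0.284), was lower in CA1 in 7 of 8 pairs. It was -0.28 without CA3 replicate 2 at 30 min and -0.67 without CA3 replicate 1 at 30 min. The other Cacna1c probe set, with a mean log2 value of 3.95, was at -0.09 ± 0.08 in the fit of all arrays. Scn3a, at 0.27 ± 0.14 in the pair fit (adjusted p = 0.56), was higher in CA1 in 7 of 8 pairs. Its mean was 0.08 and 0.46 without CA1 replicate 2 and replicate 1 at 3 h. Scn1a was lower in CA1 in 7 of 8 pairs, yet the pair that ran the other way differed by 2.14. The Scn1a mean was -0.13 ± 0.25 in the pair fit. The γ genes had field differences of at most 0.09 in size. As a check of the field labels, 6 of 8 listed CA1 pyramidal markers were measured and all 6 were higher in CA1, with a median difference of 0.62, and 4 of 8 CA3 pyramidal markers were measured, 3 of them lower in CA1, with a median of -0.27. By limma 0 of either list were called, with 2 and 1 under 0.05 unadjusted. Over all 15866 probe sets 0 were called and 510 were under 0.05 unadjusted. The CA1 list did not separate the fields at every time: at T0 3 of 6 were higher and 3 lower, with a median of -0.04, and array means were 4.78 and 4.85 in CA1 against 5.03 and 5.16 in CA3. At 3 h it was again 3 and 3, with a median of 0.17, whereas 5 of 6 were higher at 30 min (0.69) and at 12 h (1.89). The CA3 list had medians of -0.26, -0.08, -0.17 and -0.43 at the 4 times. Over the same comparison the median was 0.15 for 10 astrocyte markers, -0.65 for 9 oligodendrocyte markers and -0.35 for 11 general neuron markers, and the part of these cells in the Scn7a and Cacna2d3 differences was not tested.

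**Figure D3:**
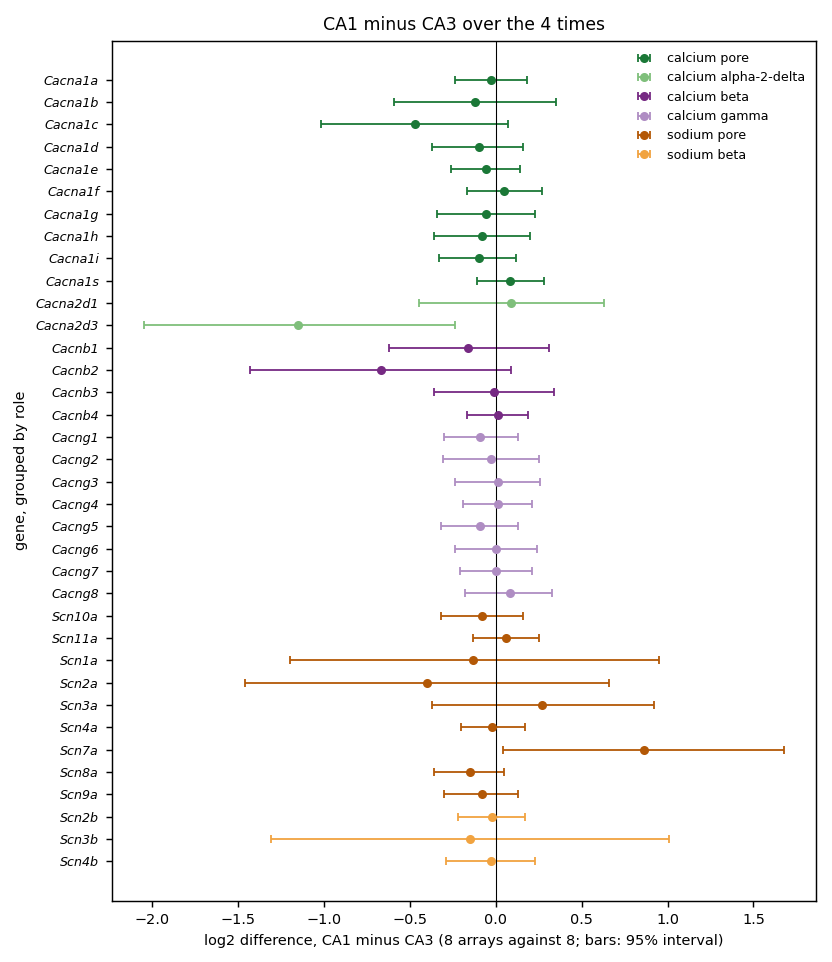
Log2 difference CA1 minus CA3 over the 4 times for each gene, grouped by role (8 arrays against 8; bars are 95% intervals from the limma fit of all arrays). Cacna2d3 at -1.15 and Scn7a at 0.86 have intervals that exclude 0 before adjustment; most genes lie within 0.2 of 0.

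The spread between replicates limits all of these comparisons, and it was wide in genes that also had large values at 12 h. The SD within groups had a median of 0.22 over the 36 genes, against 0.30 over all probe sets, but was 1.19 for Scn3b, 1.11 for Scn1a, 1.09 for Scn2a, 0.93 for Cacna2d3 and 0.84 for Scn7a. At 3 h in CA1, replicate 2 was higher in 31 of 36 genes, with a median difference of 0.33 beside 0.06 over all probe sets. At 3 h in CA3 it was higher in 14 of 36, with a median of -0.10, so the tilt was not shared by the fields. Scn1a, Scn2a and Scn3a were higher in replicate 2 in 7 of 8 groups each, as were Cacna1c, Cacna1h and Cacna2d1. Scn7a and Cacng1 were higher in 1 of 8. The same count over all probe sets was not made. The 3′ minus 5′ GAPDH difference was larger in replicate 2 in 8 of 8 groups, by 0.58 to 2.30, and the part of RNA quality in this split was not tested.

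**Figure D4:**
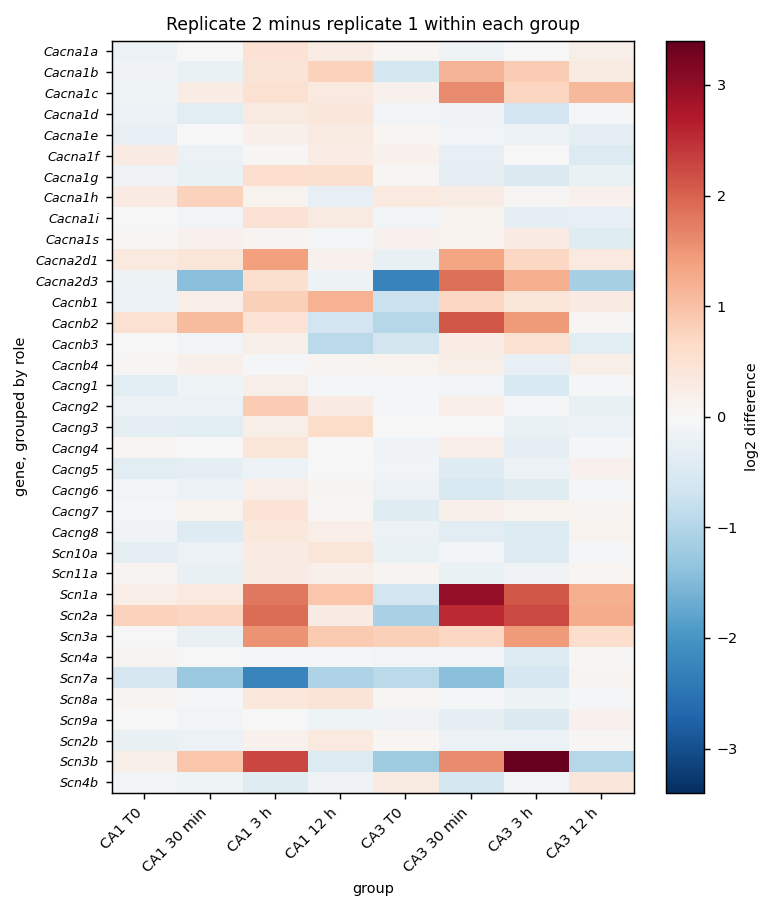
Log2 difference between replicate 2 and replicate 1 in each of the 8 groups (columns) for each gene (rows, grouped by role); red means that replicate 2 was higher. The strongest reds are those of Scn3b in CA3 at 3 h (3.39) and Scn1a in CA3 at 30 min (2.99), and the strongest blues those of Cacna2d3 in CA3 at T0 (-2.28) and Scn7a in CA1 at 3 h (-2.25).

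Neuron markers were also higher at 12 h. The mean log2 value of 11 of 12 listed general neuron markers lay between 6.23 and 8.17 on T0 arrays, 6.33 and 8.65 at 30 min, 5.95 and 8.51 at 3 h, and 8.35 and 9.11 at 12 h. Their median change at 12 h was 1.77, with 2 of 11 (Stmn2 and Tubb3) called higher and 10 of 11 positive. Over all 15866 probe sets the median was -0.02, with 133 called higher and 195 called lower. Excitatory neuron markers had a median of 1.72 (8 of 10 measured, 2 called higher), inhibitory neuron markers 0.43 (8 of 11, 0 called). Microglia markers had -1.89 (11 of 12 measured, 4 called lower), with array means of 8.15 to 8.64 at T0 and 6.30 to 7.59 at 12 h. Astrocyte markers had -0.23 (10 of 10), oligodendrocyte markers 0.09 (9 of 10) and oligodendrocyte precursor markers -0.91 (4 of 6), with 0 called in each list. Fibroblast and meningeal markers had -0.59 (6 of 6, 1 called lower). Endothelial and mural markers had -0.08 (8 of 9) and muscle markers 0.00 (7 of 7), with 0 called in each. Muscle markers had array means of 4.10 to 4.48. In bulk tissue, fewer cells of a type and less RNA per cell cannot be told apart, and the part of cell composition in the channel values was not tested.

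Array by array, Scn2a and Cacnb2 tended to be high where the neuron markers were high, and Scn7a low, while Scn3b followed less evenly; the 16 arrays share their groups and normalization, so this is a description. The lowest marker mean, 5.95 in CA1 replicate 1 at 3 h, went with 4.27 for Scn2a, 5.79 for Scn3b and the highest Scn7a value of all, 9.94. The highest, 9.11 in CA3 replicate 2 at 12 h, went with the highest Scn2a value, 7.12, the highest Cacnb2 value, 8.98, and 6.64 for Scn7a, but with 6.95 for Scn3b, the lowest of its 12 h arrays. The 3 h arrays numbered 2 had Scn3b values of 8.05 and 8.83, the latter the highest of the 16, at marker means of 7.53 and 8.51. Cacna1a, between 6.10 and 6.77 on all 16 arrays, did not follow this order. Cacna1b had 5.30 on the array with the lowest marker mean and 6.23 on that with the highest. On the same arrays Scn1a had 4.44 and 6.52, and Cacna2d3 5.20 and 7.79. The remaining channel genes were not set against the markers.

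**Figure D5:**
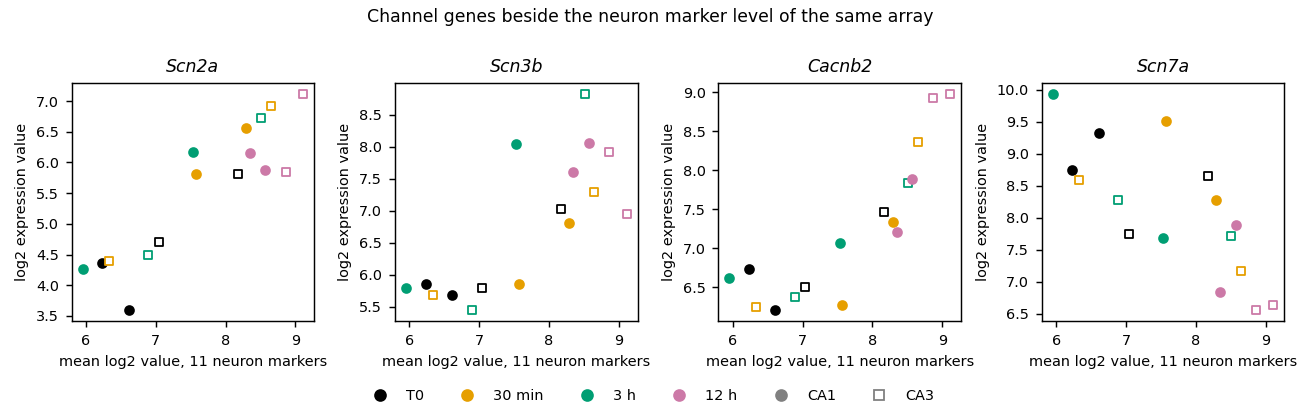
Log2 value of Scn2a, Scn3b, Cacnb2 and Scn7a on each array (vertical) against the mean log2 value of 11 general neuron markers on the same array (horizontal), coloured by time, with filled circles for CA1 and open squares for CA3. Scn2a and Cacnb2 climb from left to right, Scn3b does so with more scatter, and Scn7a descends. The 4 arrays at 12 h sit at the right, between 8.35 and 9.11. CA3 replicate 2 at 30 min (8.65) and at 3 h (8.51) lie in the same range.

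The spiked control transcripts also differed with time. The mean log2 signal of 24 Bacillus spike probe sets was 6.29 to 6.85 at T0, 4.26 and 4.51 in the arrays numbered 2 at 30 min, and 4.45 to 5.39 at 12 h. With that signal as a covariate, the 12 h values were 0.64 for Scn2a, 0.97 for Scn3a, 1.29 for Scn3b, 0.68 for Cacnb2, 0.65 for Cacnb1, 0.17 for Cacna1b, 0.98 for Cacnb3, 1.25 for Cacna2d3, 0.64 for Cacna2d1 and -0.97 for Scn7a, and those of Scn1a and Cacna1c became -0.12 and -0.20. Signal and time are partly confounded in this design.

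Proteins that anchor or regulate the channels were taken from lists of partners. Of 12 sodium channel partners, all measured, 0 were called by limma at 12 h, 2 had an unadjusted p under 0.05, and the median change was 0.05. The axonal anchors Ank3, Nfasc and Nrcam were at 0.41 ± 0.30, 0.00 ± 0.36 and 0.13 ± 0.23, while Fgf13, an intracellular modulator of sodium pores, was at 1.74 ± 0.72 (adjusted p = 0.233) and Nedd4l, a ubiquitin ligase for sodium channels, at 1.10 ± 0.40 (adjusted p = 0.181). Of 22 calcium channel partners 18 were measured, 15 of them positive with a median of 0.71, and 0 were called, with 7 under 0.05 unadjusted. The background for both lists at 12 h was 2891 of 15866 probe sets under 0.05 unadjusted, 2.07% called and a median of -0.02. Stx1a and Snap25, release proteins that bind presynaptic calcium pores, were at 1.96 ± 0.50 (adjusted p = 0.0747) and 2.56 ± 0.95 (adjusted p = 0.184), and Camk2a, a calcium-dependent kinase, at 1.67 ± 0.62 (adjusted p = 0.187). The active zone scaffolds Rims1 and Rims2 were at 0.19 ± 0.12 and 0.18 ± 0.15. Snap25 is also one of the neuron markers.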

How the data were processed

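Log2 expression values were deposited, 1 per probe set and array. Per the submitters' processing notes the authors used RMA, with a version not given in the sources used here. RNA was labelled in a protocol with repeated cycles, per the labels, which amplifies it. Because RMA equalises array distributions, each change is relative to the rest of the array; array medians ran from 5.81 to 5.94, and the number of arrays limits the precision. The 57 control probe sets were set aside. Gene names came from the platform annotation, and all 36 symbols equal those of RefSeq. limma 3.58.1 in R 4.3.3 fitted 8 group means to 15866 probe sets (8 residual degrees of freedom, prior 2.55). Errors after ± are moderated standard errors. The pair fit used the differences, or the means, of CA1 and CA3 arrays of 1 time and number (4 residual degrees of freedom); deviations from the group means correlated between these at 0.568 to 0.668 over probe sets, a pairing read from the data. The fit was also run on simulated data in which arrays varied independently. That run lacked the correlation between paired arrays, so it does not vouch for the fit on these data. The genes and lists were chosen with earlier results of these data known. Array-by-array values were given, in each role and among genes with a mean of at least 5, for the 2 with the largest 12 h change and the 1 with the largest field difference. Normalization, filters, probe set choice, covariates and left-out arrays were varied.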

Additional observations from a re-analysis of the deposited data

Results flagged for a closer look

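Cacnb4 and Scn8a were picked out because, at 30 min, each CA1 array lay to one side of the CA1 arrays at T0 and each CA3 array to the opposite side of those of CA3. Cacnb4 had CA1 values of 3.49 and 3.54 at T0 and 3.62 and 3.78 at 30 min, and CA3 values of 3.59 and 3.69 at T0 and 3.34 and 3.54 at 30 min. The difference between the changes was 0.38 ± 0.23 (adjusted p = 1 by limma). Scn8a had CA1 values of 3.79 and 3.89 at T0 and 3.76 and 3.71 at 30 min, and CA3 values of 3.90 and 3.95 at T0 and 4.18 and 4.13 at 30 min, a difference of -0.34 ± 0.26 (adjusted p = 1 by limma). Both genes have low mean values, 3.57 and 3.95, and neither difference passed the test. How many of all probe sets show such an opposite separation was not counted. The pattern therefore cannot be set against the background of the array.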

How the results depend on the processing

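Of 422 recounts of called channel genes over 17 comparisons and 26 other settings, 421 gave the 0 of the limma fit of all arrays. The exception was the replicate number as a replicate block, where 5 genes passed at 12 h averaged over both fields: Cacna2d1 (adjusted p = 0.0299), Cacnb1 (0.0458), Cacnb3 (0.0452), Scn3a (0.0355) and Scn7a (0.015), beside 1302 of all probe sets. The numbers were not taken to pair the times, since 5 of 12 correlations between T0 and a later time were under 0.1 (-0.236 to 0.308). The 12 between later times were 0.296 to 0.657, 0 of them under 0.1. The 3′ minus 5′ GAPDH difference was larger in replicate 2 in 8 of 8 groups, T0 included. What the number marks is not stated, so neither fit is preferred on that ground. Pair means with the number as a block, an alternative chosen after seeing the data, called 0. Over all 36 genes, 88 of 883 values changed sign for CA1 minus CA3, and 54, 39 and 38 of 919 at 30 min, 3 h and 12 h. The values that follow are those of the larger differences, chosen after their values were seen. At 30 min, Scn1a was at -0.03 with the spike signal as a covariate and -0.11 without the number 2 arrays of 30 min and 12 h, and ran from -0.03 to 1.46 as single arrays were left out. Without the number 2 arrays of 3 h, the 3 h values were -0.36 (Scn1a), -0.23 (Scn2a), -0.34 (Scn3a) and -0.47 (Scn3b). With the spike covariate, the 12 h values of Cacna1c and Scn1a were -0.20 and -0.12. The cause was not tested. The medians over the 36 genes moved by less than the spread between replicates. Low signal limits the 17 genes with means under 5.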
